A study of Homo sapiens with 18 samples.

Results

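The clustered protocadherins are 53 genes of chromosome 5 that stand in 3 neighbouring arrays, alpha, beta and gamma. They were taken as every gene with a protein-coding transcript and a symbol of the PCDHA, PCDHB, PCDHGA, PCDHGB or PCDHGC series, 53 of the 62749 genes in the files. The alpha cluster has 15 members (PCDHA1 to PCDHA13, PCDHAC1 and PCDHAC2), the beta cluster 16 and the gamma cluster 22 (12 gamma-A, 7 gamma-B, and PCDHGC3, PCDHGC4 and PCDHGC5). The 5 members named with a C are the C-type genes, which lie at the ends of the alpha and gamma arrays.

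Clustered protocadherins are cadherin-like surface proteins that bind the same protein on a facing membrane. They are best known in neurons, where each cell uses a small set of them and the combination serves self-recognition of its branches. Each variable first exon has its own promoter, and CTCF and cohesin loop the chosen promoter to distant enhancers. In the alpha and gamma clusters the first exon is spliced to constant exons that code for a shared cytoplasmic end, while beta genes have a single coding exon. In many carcinomas parts of these clusters are silenced by DNA methylation.

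The cells were MDA-MB-231, a line from a triple-negative breast cancer with mesenchymal traits, and their messenger RNA was sequenced in 18 libraries, 3 for each of 6 groups. IMPDH2 is inosine monophosphate dehydrogenase, which makes the precursor of guanine nucleotides, and the study asked what it does in the nucleus. WT cells were unedited, and KO cells lacked IMPDH2. A further group was KO with 400 µM guanosine in the medium, and the remaining 3 were KO with IMPDH2 put back, unlocalised, nuclear (NLS) or cytosolic (NES). All groups other than WT carry the knockout, and the guanosine group alone received guanosine. The labels do not say whether KO is 1 clone, so the knockout and the origin of the KO cells cannot be told apart. Separate cultures for replicate libraries are not stated either, so each p measures only the spread between these samples, which may be technical.

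Levels are CPM, estimated counts relative to the total of the library, with TMM scaling, which adjusts for library composition, and ± is an SD over n = 3 libraries. Library totals ran from 45865078 to 63276483 estimated counts. IMPDH2 itself was at 319.5, 318.4 and 318.6 CPM in WT and at 41.3, 42.3 and 41.2 CPM in KO. With guanosine it was at 22.0, 22.2 and 22.0 CPM. It was at 531.7, 542.8 and 522.0 CPM with the unlocalised form, at 282.8, 305.3 and 304.0 with the nuclear form and at 370.8, 394.7 and 370.6 with the cytosolic form. VIM, the mesenchymal filament vimentin, averaged 4765 CPM in WT, while the means of ESR1, PGR and CDH1 were at most 0.165 CPM in every group. Other markers of these lists went the other way. In WT the luminal and epithelial markers KRT8, KRT18, KRT19 and ERBB2 averaged 332.23, 312.786, 232.035 and 69.43 CPM. The mesenchymal marker SPARC averaged 1.232 CPM in WT. Of 12 listed neuronal markers STMN2 and NEFM were at 0 in every library, and the summed level of the list was 13.97 to 14.46 CPM in WT, 6.22 to 7.35 in KO and 5.73 to 8.0 in the other groups. The neuron-defining RBFOX3 averaged 4.202 CPM in WT and 0.017 CPM in KO, while SYT1 averaged 3.915 and 4.016 CPM and SYP 0.908 and 1.271 CPM. Of 6 neuronal markers tested, 3 were called lower in KO and 1 higher at the threshold given below. Beside this, 36.8% of all tested genes were called lower and 35.9% higher. The summed level of 10 luminal and epithelial markers was 955.01 to 975.3 CPM in WT and 469.35 to 480.79 in KO, that of 8 mesenchymal markers 8754.44 to 9024.5 and 6320.63 to 6728.85, and that of 6 blood and endothelial markers 10.77 to 12.76 and 4.42 to 5.86. The part of these changes in the protocadherin results was not tested.

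In GENCODE 29 on GRCh38 the clusters span 726.8 kb of the plus strand, with alpha at chr5:140786136-141012347, beta at chr5:141051135-141249365 and gamma at chr5:141330571-141512981. The constant exons of alpha lie at chr5:140978949-140979007 (59 bases), chr5:140982475-140982563 (89 bases) and chr5:141009627-141012344 (2718 bases), and the first 2 are shared by all 15 members. Those of gamma lie at chr5:141494807-141494865 (59 bases), chr5:141505393-141505481 (89 bases) and chr5:141510947-141512979 (2033 bases), and the first 2 are shared by all 22 members. Exon bases that belong to no other member made up 43.4% to 80.8% of an alpha gene, 100% of a beta gene and 35.6% to 72.4% of a gamma gene. Reads from constant exons were therefore divided between members by the authors' quantification, while a cluster's sum does not depend on that division. PCDHGB4, which overlaps PCDHGA8, had 26.6% unique words of 31 bases, the lowest share of the 53. PCDHB8 had 41.6%, the lowest of the beta genes.

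Promoter sequences were taken from RefSeq (GRCh38.p14), which held 47 of the 53 members. Of these, 44 (93.6%) had the letters CGCT, the core of the conserved element of protocadherin promoters, on the gene's strand within the 100 bases before the start site, at a median of 47.5 bases before it for the nearest match. Over all 27305 genes of the table the share was 28.1%. In the whole window of 300 bases, on either strand, CGCT was in 97.9% of members and 69.4% of all genes. The 8-base word GTGGCGCT (or AGCGCCAC on the other strand), which contains CGCT, was tied with 2 other words for the most members, with 27.7% of them against 1.18% of all genes. It stood in 13 of the 14 beta promoters of the table, in 0 of 13 alpha and in 0 of 20 gamma promoters. The stretches below are shown because the results turn on these members, with CGCT on the gene's strand in capitals.
PCDHA1, chr5:140786040-140786139: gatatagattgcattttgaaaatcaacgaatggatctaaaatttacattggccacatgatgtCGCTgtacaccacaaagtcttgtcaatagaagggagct
PCDHA12, chr5:140875208-140875307: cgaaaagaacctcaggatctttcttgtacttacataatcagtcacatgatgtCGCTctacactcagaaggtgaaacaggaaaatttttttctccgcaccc
PCDHAC1, chr5:140926199-140926298: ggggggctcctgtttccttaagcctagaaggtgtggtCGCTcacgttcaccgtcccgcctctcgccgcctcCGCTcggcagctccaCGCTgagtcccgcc
PCDHAC2, chr5:140966376-140966475: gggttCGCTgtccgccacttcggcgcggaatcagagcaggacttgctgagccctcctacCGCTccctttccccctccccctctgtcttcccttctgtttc
PCDHB2, chr5:141094515-141094614: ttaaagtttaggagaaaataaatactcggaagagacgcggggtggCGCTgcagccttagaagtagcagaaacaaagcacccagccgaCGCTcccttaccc
PCDHB5, chr5:141135106-141135205: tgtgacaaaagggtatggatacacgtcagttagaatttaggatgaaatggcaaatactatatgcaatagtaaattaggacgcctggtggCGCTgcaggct
PCDHB15, chr5:141245295-141245394: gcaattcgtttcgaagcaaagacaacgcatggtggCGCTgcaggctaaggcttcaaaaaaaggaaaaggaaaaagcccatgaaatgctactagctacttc
PCDHGA3, chr5:141343729-141343828: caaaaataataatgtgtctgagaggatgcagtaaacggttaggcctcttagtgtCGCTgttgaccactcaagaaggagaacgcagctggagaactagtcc
PCDHGA4, chr5:141354921-141355020: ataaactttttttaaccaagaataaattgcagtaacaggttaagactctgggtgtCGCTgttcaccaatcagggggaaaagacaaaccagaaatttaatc
PCDHGB2, chr5:141360036-141360135: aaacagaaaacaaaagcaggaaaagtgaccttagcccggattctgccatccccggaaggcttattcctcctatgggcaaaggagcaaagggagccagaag
PCDHGB4, chr5:141387598-141387697: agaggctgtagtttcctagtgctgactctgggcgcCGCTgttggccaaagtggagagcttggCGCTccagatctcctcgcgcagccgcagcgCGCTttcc
PCDHGC3, chr5:141475866-141475965: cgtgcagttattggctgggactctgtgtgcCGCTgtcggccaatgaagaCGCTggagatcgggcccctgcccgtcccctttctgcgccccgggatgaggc
PCDHGB2, the gamma gene with the highest WT level, lacks these letters on its strand in the 100 bases before the RefSeq start. It is 1 of 3 such members of the table, beside PCDHA9 and PCDHB8. In the whole window of 300 bases CGCT was on the gene's strand in 46 of the 47 members, and PCDHB8 had the 8-base word. The absence is thus stated for these 100 bases, whose place depends on the start used. The PCDHGB2 stretch ends at chr5:141360135, past the gene's GENCODE start at chr5:141360042. That of PCDHA9 ends at chr5:140848381, past its GENCODE start at chr5:140847463. PCDHB15 and PCDHGA4, which fell in KO, have the letters as PCDHB2 and PCDHGA3, which rose, do. A match is a description of the letters alone and shows no binding. It does not show that the whole conserved element is present, in PCDHAC2 or in any other member.

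All 3 clusters were higher in KO than in WT, the alpha cluster from near 0. The alpha members summed to 0.451, 0.403 and 0.62 CPM in the WT libraries and to 9.881, 10.429 and 9.989 CPM in the KO libraries, a ratio of 20.6. The beta members summed to 21.851 ± 0.741 CPM in WT and 73.903 ± 2.571 CPM in KO, a ratio of 3.38. The gamma members summed to 24.518 ± 1.131 CPM in WT and 57.946 ± 1.395 CPM in KO, a ratio of 2.36. In each cluster the lowest KO library was above the highest WT library. In bulk RNA, more message per cell and more cells with the message cannot be told apart.

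**Figure D1:**
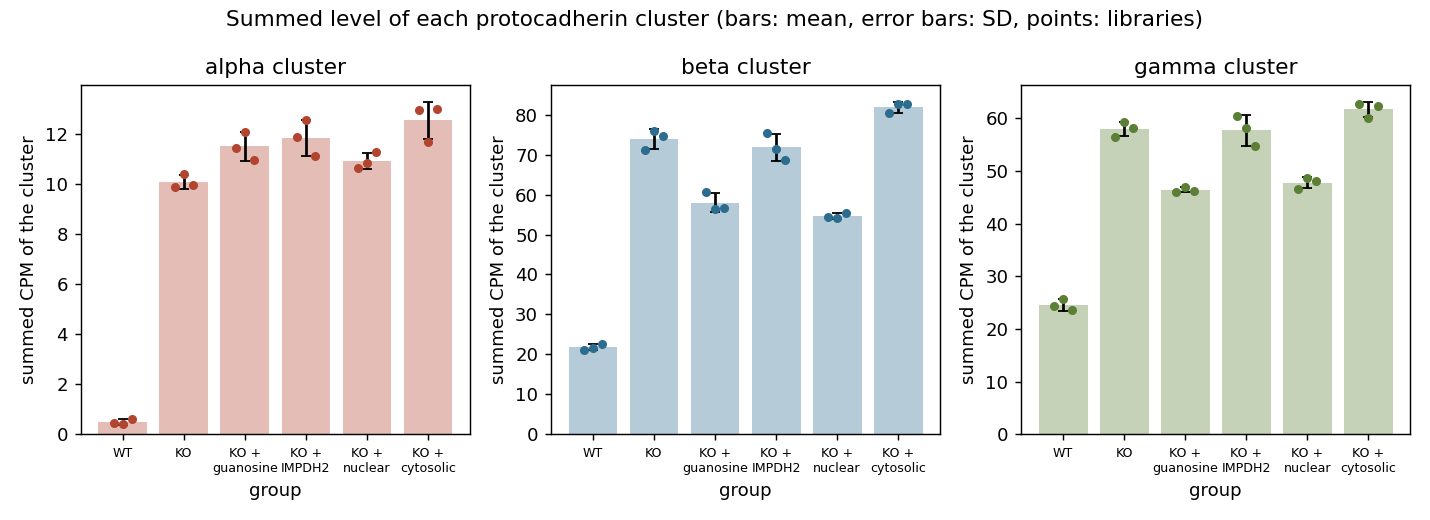
Summed CPM of the alpha, beta and gamma members in each of the 6 groups (bars, mean; error bars, SD; points, libraries; n = 3). WT is the lowest group in all 3 panels, and the beta and gamma bars of the guanosine and nuclear groups stand below KO while their alpha bars do not.

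Of the 53 members 40 passed the filter on low counts, 7 of alpha, 15 of beta and 18 of gamma. Of the 40, 34 rose in KO against WT and 2 fell (edgeR's quasi-likelihood test over 19252 genes, Benjamini-Hochberg adjusted p under 0.05), beside 35.9% of all tested genes called higher and 36.8% called lower. By cluster, 7 of 7 alpha members rose, 14 of 15 beta members rose and 1 fell, and 13 of 18 gamma members rose and 1 fell. The median log2 fold change of the 40 was 1.79, against 0.01 over all tested genes, and the cluster medians were 4.38 for alpha, 1.87 for beta and 1.2 for gamma, with genes at 0 in WT set at their lower bound. A gene that is near 0 in WT passed the filter only because it was high elsewhere, so these counts describe the tested members and not all 53. PCDHGA2, PCDHGA5, PCDHGB3 and PCDHGB6 were tested and not called. The 13 members that were not tested were PCDHB1, PCDHA2, PCDHA3, PCDHA4, PCDHA5, PCDHA8, PCDHA9, PCDHA10, PCDHA11, PCDHGC4, PCDHGA8, PCDHGA11 and PCDHGB5, none above 14.8 counts in any library.

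**Figure D2:**
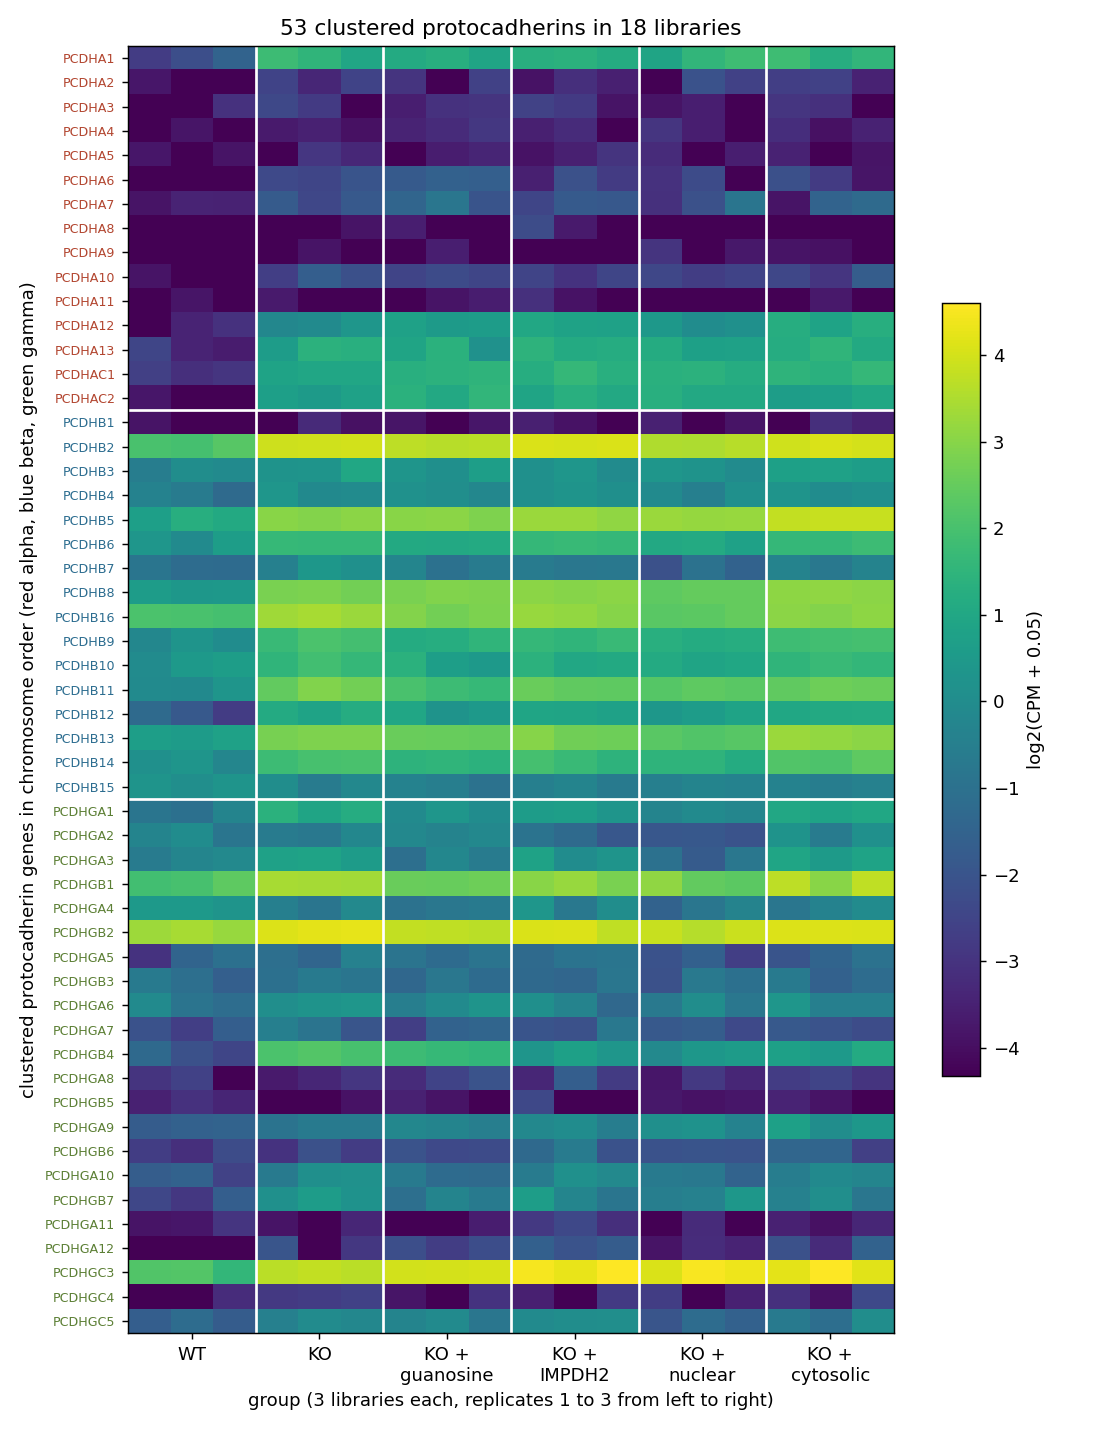
Level of each of the 53 members (rows, chromosome order, red alpha, blue beta, green gamma) in each of the 18 libraries (columns), as log2(CPM + 0.05). Most alpha rows are near the floor in WT, and PCDHA1, PCDHA12, PCDHA13, PCDHAC1 and PCDHAC2 are lit in all 15 other libraries, while rows such as PCDHA8, PCDHA9 and PCDHA11 stay dark throughout.

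The alpha cluster was carried by 5 genes. PCDHAC2, the C-type gene nearest the alpha constant exons, was at 0.023, 0 and 0 CPM in WT and at 1.6, 1.4 and 1.69 CPM in KO. That is 1.2 estimated counts in all WT libraries against 272.1 in KO, or 195 times as many after scaling (95% counting interval 42.0 to 9350). PCDHAC1, the other alpha C-type gene, was at 0.113, 0.064 and 0.08 CPM in WT and at 1.75, 1.9 and 1.91 CPM in KO. It rose 20.9-fold (adjusted p = 3.39e-13 in edgeR). Both genes were thus close to silent in each WT library and at an even level across the KO libraries.

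PCDHA1, the first gene of the array, was at 0.101, 0.17 and 0.309 CPM in WT and at 3.43, 2.8 and 1.9 CPM in KO. It rose 14.3-fold (log2 3.84, SE 0.341, edgeR adjusted p = 9.25e-09). PCDHA13, the last of the alternate alpha exons, was at 0.132, 0.042 and 0.031 CPM in WT and at 1.46, 2.6 and 2.42 CPM in KO (log2 4.85, SE 0.411, edgeR adjusted p = 4.97e-09). PCDHA12, PCDHA13, PCDHAC1 and PCDHAC2 are the last genes of the array and PCDHA1 is its first. PCDHA12 was at 0, 0.042 and 0.07 CPM in WT and at 0.821, 0.923 and 1.25 CPM in KO (log2 4.57, SE 0.39, edgeR adjusted p = 5.3e-09). PCDHA6 had 0 counts in WT and 28.0 in KO and was at least 8.1-fold higher if WT is set at 3 counts over its 3 libraries, and PCDHA7 rose by 2.55 on the log2 scale. Of the untested alpha genes PCDHA10 had 1.0 count in WT and 31.7 in KO (ratio 27.5, 95% counting interval 4.64 to 1130), and PCDHA2 had 1.2 and 17.0 (ratio 11.9, interval 2.31 to 616), while PCDHA8, PCDHA9 and PCDHA11 had at most 1.6 counts in either group.

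Beta genes have no shared exon, so no read had to be divided over a constant exon. Reads could still be divided between similar genes. Unique words of 31 bases made up 41.6% of PCDHB8, 58.1% of PCDHB10 and 60.1% of PCDHB9, against a beta median of 77.2%. PCDHB2 was the beta gene with the highest level, at 4.05, 3.86 and 4.83 CPM in WT and 15.2, 15.4 and 16 CPM in KO. It rose 3.65-fold (log2 1.87, SE 0.067, edgeR adjusted p = 2.14e-14). PCDHB8 was at 1.47, 1.27 and 1.3 CPM in WT and at 6.96, 7.12 and 6.44 CPM in KO, and it rose by 2.34 on the log2 scale. Groups did not overlap for either gene, and their replicates lay close together. PCDHB5 was at 1.57, 2.35 and 2.09 CPM in WT and at 8, 7.61 and 8.19 CPM in KO (3.96-fold, edgeR adjusted p = 2.03e-12). PCDHB16 was at 4.11, 4.02 and 3.82 CPM in WT and at 10, 10.6 and 9.57 CPM in KO, 2.52-fold. PCDHB9 was at 0.825, 1.16 and 0.962 CPM in WT and at 3.26, 4.13 and 3.74 CPM in KO. The other beta genes that rose lay between 0.73 (PCDHB3) and 3.09 (PCDHB12) on the log2 scale.

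PCDHB15, the last beta gene, went the other way. It was at 1.19, 1.01 and 1.18 CPM in WT and at 0.976, 0.597 and 0.852 CPM in KO. The groups did not overlap, and it fell with an edgeR adjusted p of 0.0374. This call is weak, since it was lost in 9 of 15 other settings, among them without WT replicate 1 or 3 and without KO replicate 2 or 3, and adjusted p ran from 0.018 to 0.179 over the settings.

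Gamma genes were already used in WT, and the ratio of their sums was the smallest of the 3 clusters. PCDHGB2 was the gamma gene with the highest WT level, at 9.7, 10.8 and 9.25 CPM, and stood at 17.6, 19 and 19.3 CPM in KO. It rose 1.88-fold (log2 0.91, SE 0.092, edgeR adjusted p = 5.25e-08). PCDHGB1, another gamma-B gene, was at 3.67, 3.93 and 5.18 CPM in WT and at 10.7, 10.4 and 10.1 CPM in KO. PCDHGB4 stood apart in the gamma cluster, at 0.364, 0.183 and 0.133 CPM in WT and 4.15, 4.55 and 3.92 CPM in KO. It rose 18-fold (log2 4.17, SE 0.262, edgeR adjusted p = 6.62e-11), between PCDHA1 and PCDHAC1 in size. PCDHGB7 was at 0.136, 0.085 and 0.271 CPM in WT and at 1.05, 1.47 and 1.13 CPM in KO (log2 2.85, SE 0.462). PCDHGA12 had 0 counts in WT and was at least 4.87-fold higher in KO.

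PCDHGC3, a C-type gene, was at 4.45, 4.57 and 2.93 CPM in WT and at 12.7, 13.8 and 12.6 CPM in KO. It rose 3.27-fold (log2 1.71, SE 0.146, edgeR adjusted p = 5.36e-09). Its level is uncertain, because the transcript PCDHGC3-205, of which 7.1% of the bases belong to no other member, took 2289.6 of its counts over the 18 libraries, and without it the change was 1.54. PCDHGC5, the C-type gene before the gamma constant exons, was at 0.264, 0.392 and 0.255 CPM in WT and at 0.682, 0.937 and 0.828 CPM in KO (log2 1.43, SE 0.315). PCDHGC4 was at 0, 0 and 0.06 CPM in WT and at 0.09, 0.1 and 0.117 CPM in KO, too low for the test (ratio 5.17, 95% counting interval 1.52 to 27.6). Of the other untested gamma genes PCDHGB5 went the other way, with 7.6 counts in WT and 1.1 in KO (ratio 0.126, 95% counting interval 0.00244 to 0.809).

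Of the gamma-A genes, PCDHGA1 was at 0.506, 0.434 and 0.769 CPM in WT and at 2.54, 1.78 and 2.25 CPM in KO, and it rose by 1.95 on the log2 scale. PCDHGA3 was at 0.604, 0.788 and 0.877 CPM in WT and at 1.69, 1.77 and 1.44 CPM in KO, a rise of 1.11. Both were higher in every KO library than in any WT library. PCDHGA4, which lies downstream of both, was at 1.34, 1.35 and 1.18 CPM in WT and at 0.666, 0.501 and 0.869 CPM in KO. It fell by 0.92 on the log2 scale (SE 0.308, edgeR adjusted p = 0.0122). The call was lost in edgeR with an offset for transcript length (adjusted p = 0.0856) and without KO replicate 2 (adjusted p = 0.0598).

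**Figure D3:**
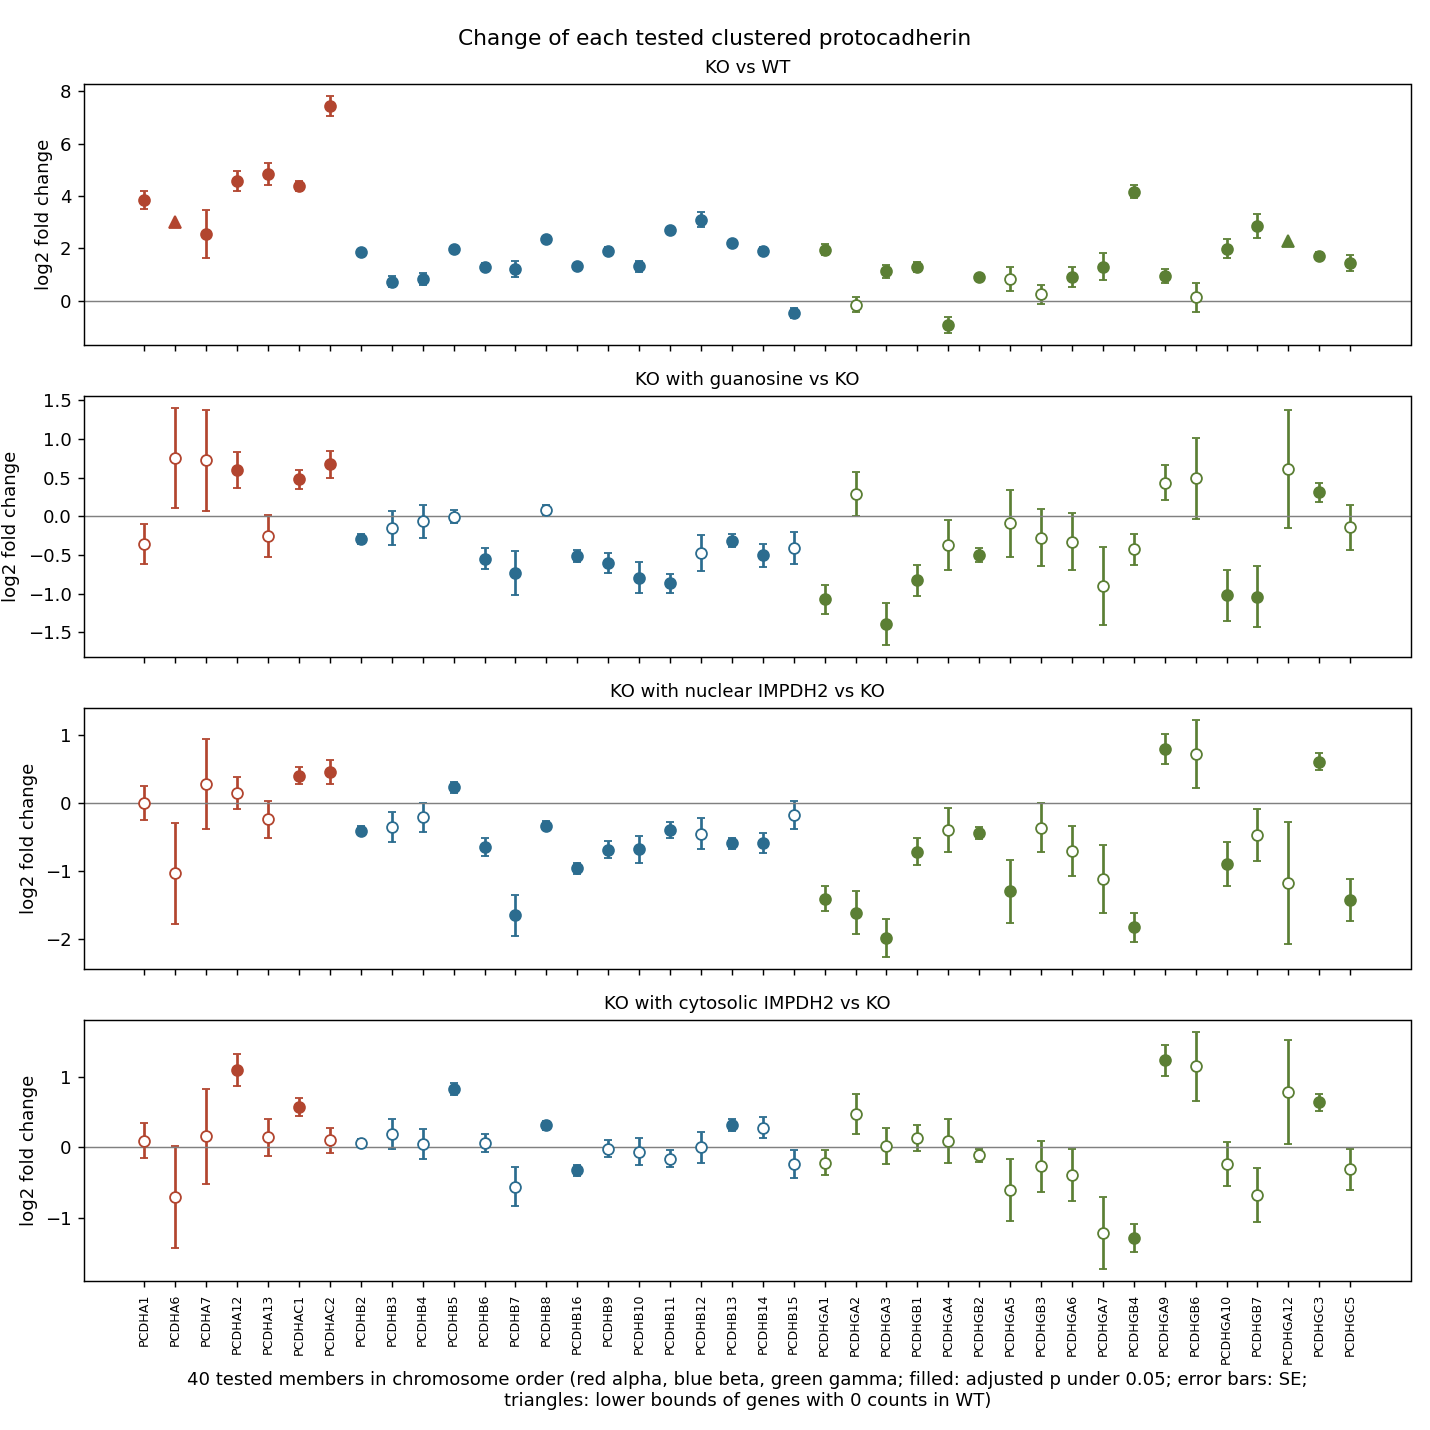
Log2 fold change (points) with its SE (bars) for each of the 40 tested members in chromosome order, in 4 panels: KO against WT, and the guanosine, nuclear and cytosolic groups against KO; filled points have an adjusted p under 0.05, and triangles are lower bounds of genes with 0 counts in WT. The top panel is above 0 for nearly all members, and the guanosine and nuclear panels are mostly below 0 for beta and gamma. The cytosolic panel lies on both sides of 0, from -1.28 to 1.23 with a median of 0.05.

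Levels of different members were compared by TPM, the authors' length-corrected share of all transcripts. In KO the beta gene PCDHB2 had 5.022 ± 0.213 TPM and the gamma gene PCDHGB2 averaged 3.761 TPM, while PCDHA1, the highest alpha gene, had 0.835 ± 0.085 TPM. Within the beta cluster PCDHB2 held 20.6% of the summed TPM in WT and 20.5% in KO. Within gamma, PCDHGB2 went from 34.9% to 29.1% and PCDHGB4 from 0.9% to 7.1%. With CPM per kilobase as the measure, PCDHGB2 had 40.8% in WT and 32.4% in KO, and PCDHGC3 had 16.2% in WT, 22.6% in KO and 32.9% to 41.7% in the other groups. The mean TPM of PCDHB2 in the guanosine and cytosolic groups rests on 1 library each (26.956 and 41.973 TPM) whose CPM was level with the others, so TPM is not used there.

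Guanosine, which cells can turn into guanine nucleotides by salvage, went with lower beta and gamma sums but not with a lower alpha sum. The beta sum was 57.999 ± 2.394 CPM, 21.5% below KO, and the gamma sum was 46.414 ± 0.493 CPM, 19.9% below KO. The alpha sum was 11.516 ± 0.565 CPM, 14.0% above KO. None of the 3 sums overlapped with KO. With protein-coding transcripts alone the log2 ratio of the alpha sums was 0 in place of 0.19. Against KO, 15 members fell and 4 rose, beside 29.2% of all tested genes called lower and 27.3% called higher. The count of members that fell is above the share of all genes and the count that rose below it, neither of which was tested, and their median was -0.32. The members that fell were 9 beta and 6 gamma genes, and those that rose were PCDHAC1, PCDHAC2, PCDHA12 and PCDHGC3. The 4 that rose became 2 without KO replicate 1 or 2, without guanosine replicate 1, 2 or 3, or with a length offset, and 1 with protein-coding transcripts alone. The 15 that fell became 10 with the length offset.

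PCDHGA3 had the largest drop with guanosine, to 0.431, 0.818 and 0.609 CPM (log2 -1.39, SE 0.271, edgeR adjusted p = 0.000253). PCDHGA1 was at 0.924, 1.24 and 0.953 CPM (log2 -1.07, SE 0.187, edgeR adjusted p = 8.41e-05). Each guanosine library was below each KO library for both genes. PCDHGB7 was at 0.424, 0.759 and 0.586 CPM (log2 -1.04, SE 0.396, edgeR adjusted p = 0.0329), a call lost without KO replicate 2, without guanosine replicate 1 or 3 and with a length offset. PCDHGB2 was at 13.5, 13.5 and 12.6 CPM and fell by 0.50 on the log2 scale. PCDHB2 was at 13.1, 12.3 and 12.7 CPM and fell by 0.29, while PCDHB5 was at 8.09, 8.29 and 7.29 CPM with no call (edgeR adjusted p = 0.95). PCDHAC1 was at 2.41, 2.62 and 2.75 CPM, above each KO library (log2 0.48, SE 0.124, edgeR adjusted p = 0.00298). PCDHAC2 was at 2.56, 2.03 and 2.91 CPM (edgeR adjusted p = 0.00308), and with protein-coding transcripts alone its change was 0.36 with an adjusted p of 0.184.

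PCDHA12 depended on how reads were divided between its transcripts. It was at 1.67, 1.4 and 1.48 CPM with guanosine and rose by 0.60 (edgeR adjusted p = 0.0397), a call lost in 7 of 15 other settings, among them without KO replicate 1 or 2 and without guanosine replicate 1, 2 or 3. In each of the 15 libraries other than WT all of its counts went either to the protein-coding PCDHA12-201 or to a transcript annotated for nonsense-mediated decay. KO replicate 1, guanosine replicates 1 and 3 and nuclear replicate 2 were given the second. With protein-coding transcripts alone the change against KO was -0.64 and not called, and the calls of PCDHA12 in the comparisons of the other groups below were lost in the same setting.

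With the unlocalised form of IMPDH2 the beta and gamma sums overlapped with those of KO. The beta sum was 71.798 ± 3.413 CPM and the gamma sum 57.73 ± 2.901 CPM, and the alpha sum was 11.864 ± 0.712 CPM, 17.5% above KO. Of the 40 members 7 rose and 7 fell, beside 25.7% of all tested genes called higher and 25.1% called lower. Both counts of members are below these shares, a difference that was not tested. Their median was -0.19. The 14 calls became 8 without KO replicate 2 and 9 without KO replicate 3, without replicate 2 or without replicate 3 of the unlocalised form, or with an offset for transcript length. The 7 that fell became 3 without KO replicate 2 or 3 and 2 without replicate 3 of the unlocalised form, and the 7 that rose became 4 without its replicate 2. PCDHGB4 was the exception in size, at 1.21, 1.64 and 1.23 CPM (log2 -1.63, SE 0.209, edgeR adjusted p = 3.56e-06). PCDHGA1 fell to 1.47, 1.55 and 1.21 CPM (edgeR adjusted p = 0.00691). PCDHB7 was at 0.682, 1.27 and 1.06 CPM in KO and at 0.608, 0.529 and 0.551 CPM here (log2 -0.82, edgeR adjusted p = 0.0212), a call lost without KO replicate 2 or 3 and without replicate 2 or 3 of the unlocalised form. PCDHGC3 rose to 22.4, 19.6 and 24.1 CPM (log2 0.76, SE 0.123, edgeR adjusted p = 4.95e-05), or by 0.59 without the transcript PCDHGC3-205.

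With the nuclear form beta and gamma were lower than in KO, and alpha was not. The beta sum was 54.62 ± 0.71 CPM, 26.1% below KO, and the gamma sum was 47.782 ± 1.023 CPM, 17.5% below KO. The alpha sum was 10.934 ± 0.323 CPM, 8.3% above KO, with no overlap. Against KO 19 members fell and 5 rose, beside 26.9% of all tested genes called lower and 26.1% called higher, with a median of -0.46. Those that fell were 10 beta and 9 gamma genes, and those that rose were PCDHAC1, PCDHAC2, PCDHB5, PCDHGA9 and PCDHGC3. The 5 that rose became 3 without KO replicate 2, without nuclear replicate 1, without the filter on low counts, with protein-coding transcripts alone or with a length offset. The 19 that fell became 14 with the length offset.

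PCDHGA3 was at 0.457, 0.246 and 0.533 CPM with the nuclear form (log2 -1.99, SE 0.281, edgeR adjusted p = 9.87e-06). PCDHGB4 was at 0.868, 1.25 and 1.43 CPM (log2 -1.83, SE 0.212, edgeR adjusted p = 9.2e-07). For both genes every library was below every KO library. PCDHB7 was at 0.179, 0.46 and 0.3 CPM (edgeR adjusted p = 0.000134). PCDHGC5 was at 0.203, 0.397 and 0.29 CPM (log2 -1.43, SE 0.311, edgeR adjusted p = 0.000785). PCDHB16 was at 4.92, 5.03 and 5.6 CPM (log2 -0.96, SE 0.079, edgeR adjusted p = 1.32e-08), close to its WT level of 4.11, 4.02 and 3.82 CPM. Opposite to its beta neighbours, PCDHB5 was at 9.52, 9.12 and 9.34 CPM and rose by 0.23 (edgeR adjusted p = 0.0262). PCDHGC3 was at 16.9, 22.5 and 20.4 CPM and rose by 0.62, or by 0.56 without PCDHGC3-205. PCDHAC2 was at 2.4, 2.02 and 2.04 CPM (edgeR adjusted p = 0.0352), a call lost in 6 of 15 other settings, among them without KO replicate 1 or 2 and without nuclear replicate 1. PCDHAC1 was at 2.48, 2.61 and 2.25 CPM (edgeR adjusted p = 0.0105), and this call was lost without the filter on low counts (adjusted p = 0.0677).

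With the cytosolic form the clusters stayed at or above their KO level. The beta sum was 81.895 ± 1.374 CPM, 10.8% above KO, the gamma sum 61.747 ± 1.421 CPM, 6.6% above, and the alpha sum 12.566 ± 0.745 CPM, 24.4% above. With library totals in place of TMM the log2 ratio to KO was 0.06 for beta and 0 for gamma. Of the 40 members 7 rose and 2 fell, beside 24.6% of all tested genes called higher and 26% called lower, and both counts are below these shares. The median was 0.05. PCDHB5 rose most clearly, to 13.6, 14.5 and 14.2 CPM (log2 0.83, SE 0.083, edgeR adjusted p = 1.58e-07), the highest level of this gene in any group. PCDHGA9 was at 0.478, 0.591 and 0.591 CPM in KO and at 1.65, 0.987 and 1.28 CPM here (log2 1.23, SE 0.223, edgeR adjusted p = 0.000148). PCDHGC3 was at 18.6, 23.6 and 18.4 CPM and rose by 0.64. PCDHGB4 fell to 1.64, 1.38 and 2.16 CPM (SE 0.205, edgeR adjusted p = 4.08e-05), and PCDHB16 fell to 8.13, 7.6 and 8.34 CPM (log2 -0.33, SE 0.077, edgeR adjusted p = 0.00165).

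**Figure D4:**
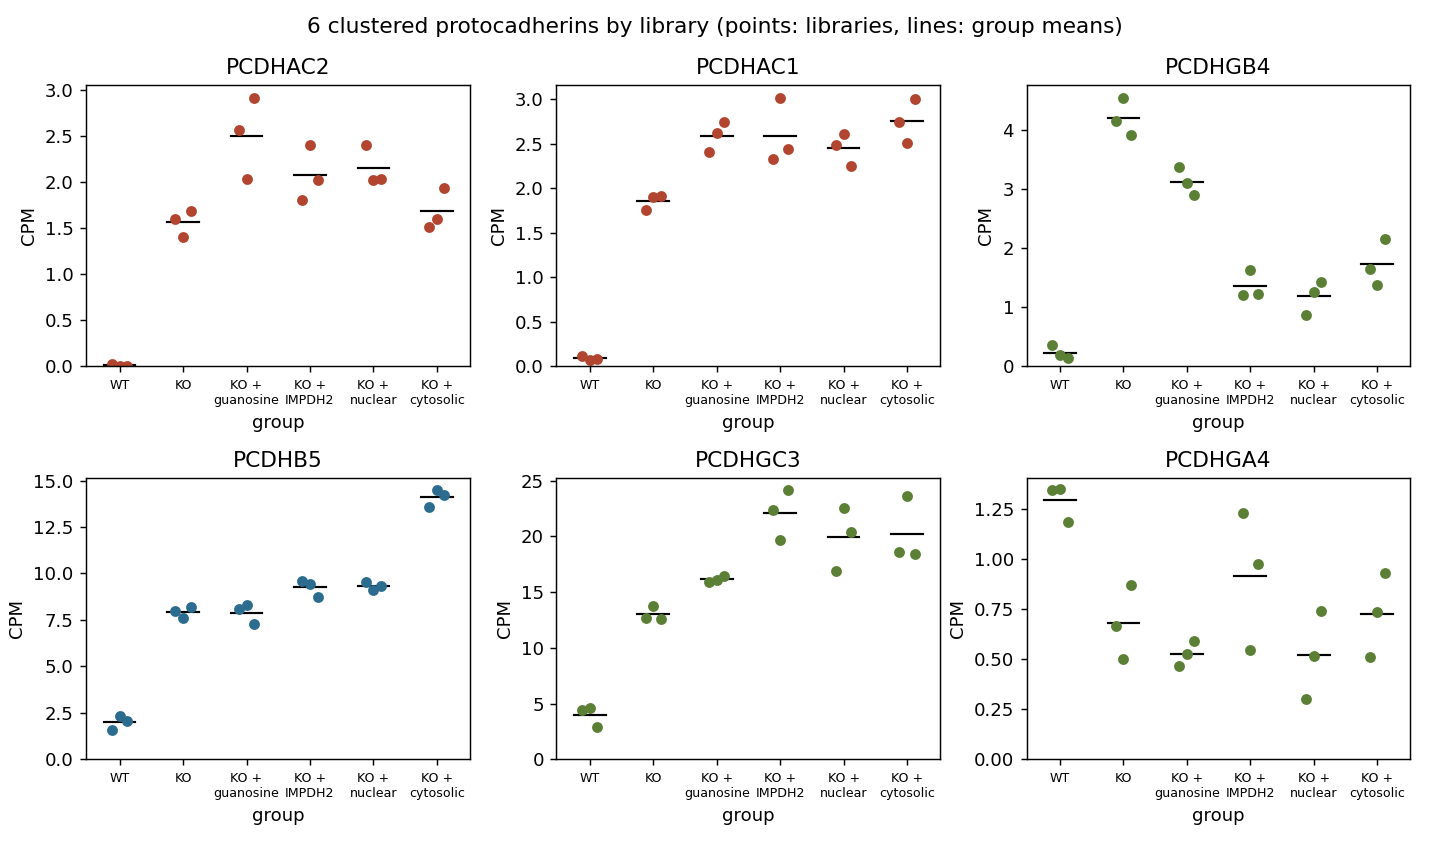
CPM of PCDHAC2, PCDHAC1, PCDHGB4, PCDHB5, PCDHGC3 and PCDHGA4 in each library (points; lines, group means) for the 6 groups. PCDHGB4 peaks in KO and is lower with each form of IMPDH2, PCDHB5 is highest with the cytosolic form, and PCDHGA4 is highest in WT.

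The nuclear and cytosolic forms were compared directly. IMPDH2 itself was at 282.8, 305.3 and 304.0 CPM with the nuclear form and at 370.8, 394.7 and 370.6 CPM with the cytosolic form. The site of the protein, its level and other differences between the 2 groups of cells cannot be told apart here. Of the 40 members 17 were lower with the nuclear form and 0 were higher in edgeR. At an unadjusted p under 0.05 or in DESeq2, which called 17 lower, 0 were higher. The 17 became 13 with a length offset, with 0 higher. They became 15 without nuclear replicate 1 or 2 or without cytosolic replicate 3. Over all tested genes 10.5% were called lower and 13.4% higher, and the members' median was -0.51 against 0.0. The lower members were 10 of beta, 6 of gamma and PCDHA12 of alpha. The beta sums had a log2 ratio of -0.58, the gamma sums -0.37 and the alpha sums -0.2, with no overlap between groups in any cluster.

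PCDHGA3, at 1.83, 1.39 and 1.74 CPM with the cytosolic form, was 4.02-fold lower with the nuclear form (SE 0.282 on the log2 scale, edgeR adjusted p = 4.54e-05). PCDHGA1, at 1.99, 1.74 and 1.92 CPM with the cytosolic form and 0.759, 0.91 and 0.809 CPM with the nuclear form, was lower by -1.19 (SE 0.19, edgeR adjusted p = 0.000165). PCDHB8, at 8.47, 8.6 and 8.3 CPM against 5.22, 5.59 and 5.51 CPM, was lower by -0.64 (SE 0.062, edgeR adjusted p = 8.26e-07). These groups did not overlap for any of the 3 genes. PCDHB5 was lower by -0.60 with the nuclear form (SE 0.082, edgeR adjusted p = 3.63e-05), although it was above KO with both.

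The clusters stayed above WT in every group that carried the knockout. Of the 40 tested members 29 were higher than WT and 2 lower with guanosine (beside 31.1% and 32.9% of all tested genes). With the unlocalised form 31 were higher and 2 lower (31.1% and 33.4%), and with the nuclear form 27 and 4 (31.5% and 33.6%). With the cytosolic form 32 were higher and 2 lower (32.9% and 34.7%). These comparisons share the WT libraries with each other. The 7 tested alpha members were called higher than WT in each of them. Near 0 in WT, they passed the filter on low counts through the other groups, so these calls give no separate support. The other 8 alpha members were not tested. The alpha sum covers all 15 without a filter. Its lowest value outside WT, 9.881 CPM in KO, stood far above its highest in WT, 0.62 CPM. PCDHB15 was lower than WT in each group, PCDHGA4 with guanosine, the nuclear and the cytosolic form, PCDHGA2 with the unlocalised and the nuclear form, and PCDHGA3 with the nuclear form.

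Most of the listed regulators of the clusters were lower in KO. The list mixes CTCF and cohesin, which loop chosen promoters to enhancers, with silencers such as SMCHD1. Its median therefore has no single meaning for the clusters. Of 26 listed architectural and chromatin genes, 22 fell and 4 rose against WT, with a median of -0.45 against 0.01 over all tested genes, of which 36.8% were called lower and 35.9% higher. STAG2, a cohesin subunit, averaged 239.0 CPM in WT and 107.0 in KO (log2 -1.16, edgeR adjusted p = 3.97e-16), and RAD21, the cohesin kleisin, 574.0 and 316.0 CPM (log2 -0.86). CHD7, a chromatin remodeller, fell by 1.48. CTCF fell less, from 87.0 to 74.7 CPM (log2 -0.22, edgeR adjusted p = 3.04e-07). SMCHD1, a known silencer of the clusters, fell by 0.61 and DNMT1, the maintenance methyltransferase, by 0.46. LRIF1, a partner of SMCHD1, rose by 1.01, EHMT2 by 0.41, MAU2 by 0.29 and ZNF143 by 0.21. Against KO, 21 of the 26 rose and 4 fell with guanosine, beside 27.3% and 29.2% of all tested genes. With the unlocalised form 21 rose and 1 fell (25.7% and 25.1%), with the nuclear form 19 and 1 (26.1% and 26.9%), and with the cytosolic form 18 rose (24.6%). RAD21 was at 492.0 CPM with guanosine, 435.0 with the unlocalised form, 481.0 with the nuclear form and 460.0 with the cytosolic form. STAG2 was at 119.0, 114.0, 120.0 and 113.0 CPM in the same groups. Whether any of these genes has a part in the protocadherin levels was not tested.

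Genes that act with protocadherins at the membrane were lower on balance. Of 28 tested signalling partners and proteases, 18 fell and 6 rose in KO (median -0.29), beside 36.8% of all tested genes called lower and 35.9% called higher. PTK2, the kinase FAK that gamma and alpha protocadherins bind, fell by 1.01 on the log2 scale, and CTNNB1, beta-catenin, from 534.0 to 254.0 CPM. WASF1 fell by 1.43 and WASF2 by 0.91, both of the WAVE complex, while its subunit ABI1 rose by 0.45. PSEN2 rose by 0.89 and PSENEN by 0.66, both of the gamma-secretase that cuts protocadherins.

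Relatives and neighbours of the clusters were lower in KO on balance. The list of non-clustered protocadherins also held FAT1, FAT3, FAT4, DCHS1 and CDHR3, which are related cadherins and not PCDH genes. Of its 14 tested genes 8 fell, FAT1, FAT4 and DCHS1 among them, and 2 rose in KO, with a median of -0.62. Beside this and the next 3 counts, 36.8% of all tested genes were called lower in KO and 35.9% higher. PCDH7 fell from 49.3 to 8.07 CPM and PCDH20 from 5.81 to 1.49 CPM, PCDH9 rose from 15.8 to 21.1 CPM, and PCDH11X, at 0.0133 CPM in WT, was at 1.1 CPM in KO. Of 17 tested classical, type II and desmosomal cadherins 9 fell and 5 rose (median -1.29), with CDH4 from 106.0 to 18.7 CPM and DSG2 from 214.0 to 78.6 CPM, and with CDH24 from 26.1 to 35.8 CPM. On 5q31, 16 of 21 tested genes before the clusters fell and 2 rose (median -0.53), and 10 of 15 between or after the clusters fell and 4 rose (median -0.43). PCDH1, which fell (log2 -0.92), is counted both in the last list and in that of non-clustered protocadherins. SLC35A4 fell by 1.1 and PURA by 0.97 on the alpha side, and DIAPH1, next to the gamma cluster, by 1.03. TAF7, a transcription factor subunit gene that lies between the beta and gamma clusters, rose from 118.0 to 144.0 CPM (log2 0.28).

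**Figure D5:**
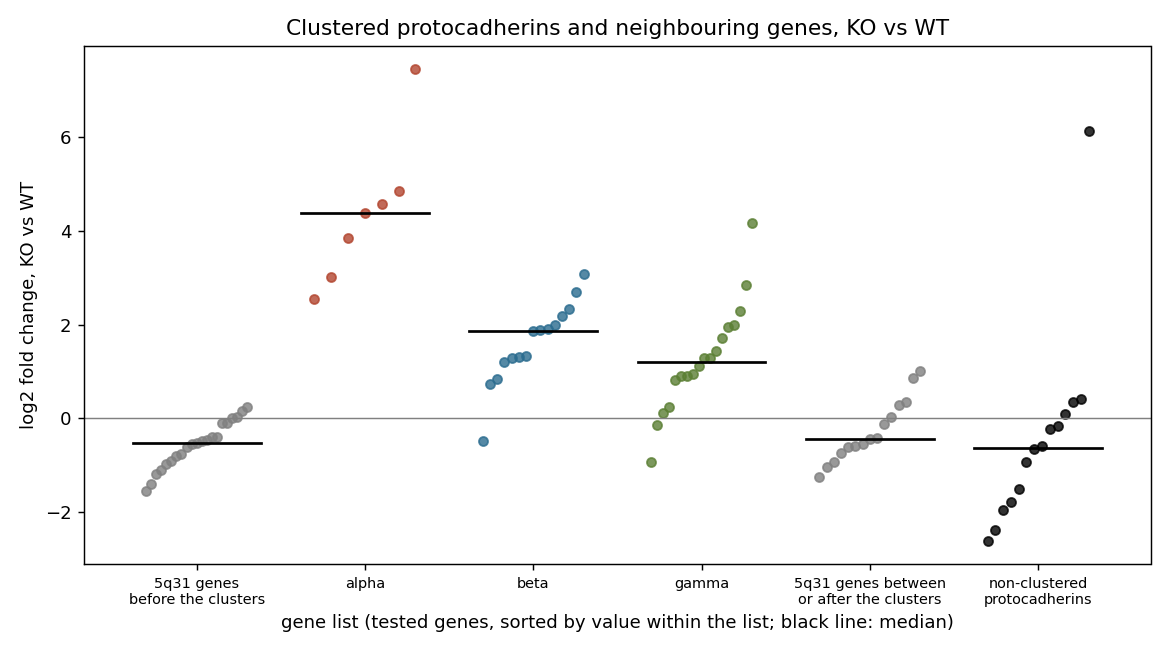
Log2 fold change of KO against WT for tested genes of the 3 clusters, of 5q31 genes on either side and of non-clustered protocadherins. Points are genes, sorted within a list, and black lines are medians. The list of non-clustered protocadherins also holds FAT1, FAT3, FAT4, DCHS1 and CDHR3. PCDH1 is plotted both there and among the 5q31 genes between or after the clusters. The medians are 4.38, 1.87 and 1.2 for alpha, beta and gamma, with genes at 0 in WT at their lower bound, against -0.53, -0.43 and -0.62 for the other lists.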

How the data were processed

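Messenger RNA of 18 MDA-MB-231 libraries was analysed. The authors deposited, per the file headers, an estimated count, a TPM and an effective length for each of 252048 transcripts. The submitters' processing notes name Trim Galore 0.6.10, Salmon 1.10.0 and hg19. Positions here are from GENCODE 29 on GRCh38 and promoters from RefSeq. Per the labels' protocols, libraries were TruSeq stranded mRNA from 500 ng of total RNA. A number in the cell line label rises from sample to sample, and 1 line was assumed from the growth protocol.

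The deposited estimated counts were summed to genes and rounded (32.5% of transcript values were not whole). All 18 libraries entered 1 edgeR 4.0.16 fit (R 4.3.3) with TMM and filterByExpr, and p-values were adjusted over 19252 genes within each of 10 comparisons. The SE is the log2 fold change divided by the root of the F statistic. DESeq2 1.42.0 was an alternative. The fit was tested on simulated data. TPM were summed to genes, and CPM was computed from the estimated counts. The members and lists were chosen with earlier results of these data known. Values by library are given for the 5 members of each cluster with the highest mean TPM, C-type genes, and per comparison the 3 higher and 3 lower called members with the largest change and at least 1 CPM; of the other lists, up to 4 called genes per direction, of which a few are not reported here. Counting intervals (95%, exact) and the floor of 3 counts cover counting error only, and pooled PCR reads are not independent molecules. Alternatives were other scalings, no filter, a length offset, the compared libraries alone, the per-sample tables, protein-coding transcripts alone, a replicate block and each library left out; leaving out transcripts with under 20% own bases, and CPM per kilobase, were added after seeing the data.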

Additional observations from a re-analysis of the deposited data

Results flagged for a closer look

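PCDHB18P, a pseudogene of the beta cluster that the comparisons above do not use, was higher in KO than in WT by a fitted log2 fold change of 5.74 (SE 0.784, edgeR adjusted p = 2.94e-06). It was at 0.041, 0 and 0 CPM in WT and at 0.73, 0.698 and 1.045 CPM in KO. That is 2.2 counts against 144.7, or 58.2 times as many after scaling (95% counting interval 17.1 to 524). These values are of the tested entry alone. Another entry under the same symbol did not pass the filter on low counts. That entry was at 0, 0.092 and 0.043 CPM in WT, at 0 in each KO library and at 0, 0 and 0.388 CPM with guanosine. With both entries together the ratio of KO to WT would be smaller. The tested entry was at 0.562, 0.715 and 0.069 CPM with guanosine and at 0.392, 0.304 and 0.505 CPM with the nuclear form. Neither group differed from KO by the test. Pseudogenes of the beta cluster resemble its coding genes, so reads may have been divided between them.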

How the results depend on the processing

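Under other settings 144 of 150 counts of called members, both directions together, stayed within 1.5 times the reported count. Of the cluster sums 166 of 180 moved by less than 1 SD, and of the changes of single members 504 of 528 kept their direction and side of the threshold. For single members, runs with a library left out entered this count only as the lowest and the highest change. Calls lost in the other such runs are not in it. PCDHA12 with guanosine against KO, for example, lost its call in 7 of 15 settings. With a length offset 12 members were called with guanosine against KO (19 otherwise) and 9 with the unlocalised form against KO (14 otherwise). With each library left out in turn the latter count ran from 8 to 15. Library totals in place of TMM shifted all genes by 0.161 in KO against WT. With them the log2 ratios of sums against WT were 1.92 for beta and 1.4 for gamma in KO. Against KO they were -0.39 for gamma with guanosine, 0.03 for alpha, -0.52 for beta and -0.36 for gamma with the nuclear form, and 0.06 for beta and 0 for gamma with the cytosolic form. With protein-coding transcripts alone KO against WT gave 1.83 for beta and 1.32 for gamma, alpha with guanosine against KO gave 0 in place of 0.19, and PCDHA12 there turned to -0.64. Without transcripts of under 20% own bases the log2 ratio of the gamma sums to KO was 0.04 for the cytosolic form, -0.33 for the nuclear form and -0.09 for the unlocalised form. By CPM per kilobase PCDHA1 held 27.8% of alpha in KO, PCDHB2 17.9% of beta in WT, and PCDHGB2 40.8% of gamma in WT and 32.4% in KO. With a replicate block 36, 18, 12, 24 and 9 members were called for KO against WT and for the guanosine, unlocalised, nuclear and cytosolic groups against KO. It called 17 for nuclear against cytosolic, and 30, 33, 32 and 34 for these 4 groups against WT, where the fit without a block gave 31, 33, 31 and 34. Same-numbered libraries had correlations of -0.086 to 0.142, and the labels do not say that a number marks a shared batch. The cause of these shifts was not tested. The 13 untested members reached at most 0.268 CPM in any library.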
